A study of Mus musculus with 8 samples.

Results

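The simple epithelial keratins are 6 intermediate filament genes, *Krt7*, *Krt8*, *Krt18*, *Krt19*, *Krt20* and *Krt23*, taken by name from the 24341 genes measured in single pancreas buds of E11.0 mouse embryos. Total RNA from 5 WT buds was compared with that from 3 Lats1/2-null buds, whose genotype is Pdx1Creearly;Lats1f/f;Lats2f/f, all on the CD1 strain at about 40 somites. In the null embryos Cre recombinase is driven by the *Pdx1* promoter, which is active in pancreatic progenitors, so both Hippo pathway kinases are deleted in the epithelium and not by design in the tissue around it. According to the methods, mesenchyme was pulled away with forceps, each bud gave its own library, and mutants were set against WT or heterozygous littermates, while the labels name all 5 controls WT. The comparison asks how loss of LATS1/2 changes the keratin RNA of the early pancreatic epithelium.

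Keratins form filaments only as pairs of a type I and a type II protein. *Krt8* (type II) and *Krt18* (type I) are the first pair made in the embryo and are present in nearly every simple, one-layered epithelium. *Krt7* (type II) and *Krt19* (type I) are added in ducts and other lining epithelia, *Krt20* (type I) is best known from intestinal and gastric lining, and *Krt23* is a little-studied type I keratin. In the developing and adult pancreas the ducts keep *Krt7* and *Krt19* while acinar cells keep mainly *Krt8* and *Krt18*. Keratin filaments are anchored at desmosomes by plakin proteins. LATS1 and LATS2 phosphorylate the coactivators YAP and TAZ, which otherwise enter the nucleus and act with TEAD transcription factors.

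All values are FPKM, fragment numbers divided by transcript length and by the size of the library, as the authors deposited them, so levels can be set side by side between genes. The worth of 1 fragment was estimated from low values of 393 single-exon genes, of which 18 to 26 in each library fell on the best-fitting steps. At a transcript length of 1000 bases it was about 0.0985 to 0.107 FPKM in 7 libraries and 0.132 FPKM in the WT library of replicate 5. A library listed 16117 to 16982 genes above 0. The log2 fold changes are those of FPKM + 1 from limma, which makes them smaller than the ratio of means for weakly expressed genes. The median over the 13777 genes tested, those with a mean of at least 0.5 FPKM, was -0.01. Both deleted genes still had whole-gene FPKM, with *Lats1* at 15.6 ± 0.905 (SD, n = 5) in WT and 12.1 ± 1.87 (SD, n = 3) in Lats1/2-null buds, and *Lats2* at 13.8 ± 1.26 and 12.3 ± 1.15, and the deleted exons were not analysed separately here. The number of fragments limits the weak keratins most: about 18.3 to 213 fragments stood behind a *Krt20* value and about 685 to 4932 behind a *Krt8* or *Krt18* value, if the longest annotated transcript was the one expressed.

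In WT buds the 6 genes fell into an order of levels on the FPKM scale. *Krt18* at 61.8 ± 14.0 FPKM (SD, n = 5) and *Krt8* at 56.0 ± 10.004 FPKM stood highest, and their ranges overlapped. *Krt7* followed at 10.8 ± 0.887 FPKM, clear of its neighbours in every bud. *Krt19* at 3.42 ± 0.745 FPKM and *Krt20* at 1.69 ± 0.733 FPKM came next, with ranges that overlapped, and *Krt23* was last at 0.172 ± 0.0741 FPKM. In Lats1/2-null buds the same order held for the means except that *Krt8* stood above *Krt18*, and the ranges of *Krt7* and *Krt19*, which were apart in WT buds, overlapped.

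The 5 stronger keratins were higher in Lats1/2-null buds, and in each of them all 3 null buds lay above all 5 WT buds. Among all tested genes, 4.46% showed this separation in the upward and 3.06% in the downward direction, and 46.9% had a log2 fold change above 0. None of the 5 reached an adjusted p under 0.05 over all genes in limma, where 2 of 13777 genes did (0.0145%), while 5 of 5 had an unadjusted p under 0.05 and were higher, as did 6.29% of all tested genes (4.99% were lower at that p). *Krt19* and *Krt20* had an adjusted p under 0.1, as did 0.174% of all tested genes. All 5 were above 0.5 FPKM in every library, so none owed its place among the tested genes to the null buds. Leaving out Lats1/2-null replicate 3, the bud with the highest value of all 6 keratins, brought *Krt7* (adjusted p = 0.00600, limma) and *Krt19* (0.0150) under the threshold. Without Lats1/2-null replicate 2, *Krt19* and *Krt20* passed (0.0462 each), and without WT replicate 4 *Krt20* alone did (0.0455). More genes than the 2 of the full fit passed in these fits. They were 19 of 13699 without null replicate 3, 69 of 13760 without null replicate 2 and 4 of 13809 without WT replicate 4.

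**Figure D1:**
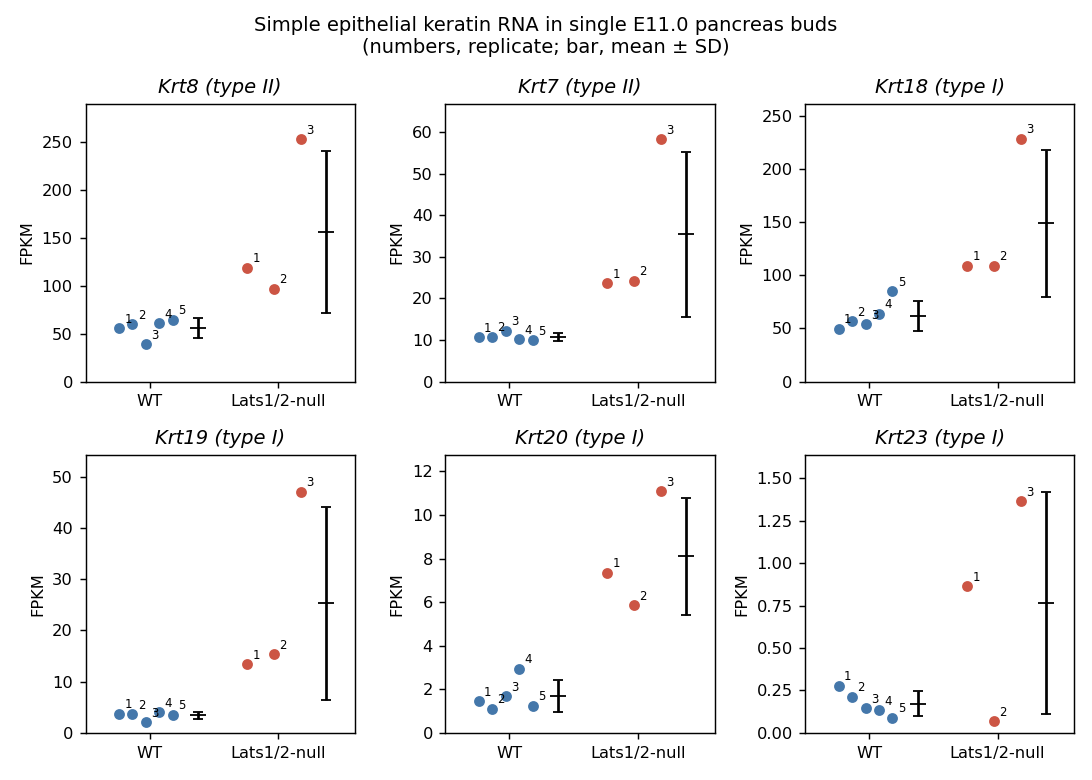
FPKM (linear axis from 0) of each keratin in 5 WT and 3 Lats1/2-null buds, with points numbered by replicate and bars at the mean ± SD. The null points of *Krt8*, *Krt7*, *Krt18*, *Krt19* and *Krt20* sit above all WT points and replicate 3 is highest, whereas for *Krt23* null replicate 2 (0.0672 FPKM) is the lowest of all 8 buds.

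*Krt8*, the common type II keratin (chr15:101996711-102004342 of GRCm38), measured 55.6, 60.0, 39.0, 60.7 and 64.5 FPKM in WT replicates 1 to 5 and 119, 97.0 and 253 FPKM in Lats1/2-null replicates 1 to 3. WT replicate 3 was the lowest bud and null replicate 3 stood apart at the top. The null mean of 156 ± 84.5 FPKM (SD, n = 3) was 2.79 times the WT mean of 56.0 ± 10.004 FPKM, or 1.93 times without null replicate 3. The log2 fold change was 1.36 (SE 0.29, adjusted p = 0.150, limma), and the exact two-sided permutation test over the libraries gave p = 0.0179, the smallest that 56 splits of 8 buds allow. A pseudogene, *Krt8-ps*, matches 941 bases of the *Krt8* transcript at 98.6% identity and is no row of the table, so reads may have been split between them.

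*Krt18*, the type I partner of *Krt8*, lies 23873 bases from it (chr15:102028216-102032026) with no other gene of the table between. Its WT values were 49.5, 56.5, 53.9, 63.9 and 85.0 FPKM, against 109, 109 and 228 FPKM in the null buds. WT replicate 5 was the nearest to the null range and still below it. The means were 61.8 ± 14.0 FPKM and 149 ± 69.0 FPKM (SD, n = 5 and 3), a ratio of 2.41, or 1.76 without null replicate 3, with a log2 fold change of 1.19 (SE 0.26, adjusted p = 0.154, limma, and exact permutation p = 0.0179).

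*Krt7* (chr15:101412403-101427806), the second type II member and a duct keratin, was the steadiest of the 6 among WT buds, at 10.7, 10.8, 12.2, 10.2 and 9.92 FPKM. The null buds measured 23.7, 24.3 and 58.4 FPKM. Replicates 1 and 2 of the null group were nearly alike and the third was far above them. Means of 10.8 ± 0.887 and 35.5 ± 19.9 FPKM (SD, n = 5 and 3) gave a ratio of 3.30, or 2.23 without null replicate 3, and a log2 fold change of 1.51 (SE 0.26, adjusted p = 0.109, limma, and exact permutation p = 0.0179).

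*Krt19* (chr11:100140811-100145919), the smallest keratin and the usual marker of pancreatic duct cells, had the largest fold change of the 6. WT buds measured 3.71, 3.64, 2.13, 4.05 and 3.55 FPKM and null buds 13.4, 15.3 and 47.0 FPKM. The lowest null bud was more than 3 times the highest WT bud. The means of 3.42 ± 0.745 and 25.3 ± 18.9 FPKM (SD, n = 5 and 3) stood at a ratio of 7.39, or 4.21 without null replicate 3. Its log2 fold change of 2.36 (SE 0.36, adjusted p = 0.0747, limma, and exact permutation p = 0.0179) ranked 35 among the 13777 genes tested, against ranks of 57 for *Krt20*, 83 for *Krt7*, 100 for *Krt8* and 126 for *Krt18*.

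*Krt20* (chr11:99428403-99438153) was weak in WT buds, at 1.46, 1.11, 1.69, 2.94 and 1.25 FPKM, and measured 7.36, 5.87 and 11.1 FPKM in null buds. It depended least on null replicate 3. The ratio of the means (1.69 ± 0.733 and 8.10 ± 2.69 FPKM, SD, n = 5 and 3) was 4.80, and 3.92 without that bud. The log2 fold change was 1.76 (SE 0.24, adjusted p = 0.0631, limma, and exact permutation p = 0.0179), with an unadjusted p that ranked 10 among all genes tested.

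*Krt23* (chr11:99477973-99493110) had a mean of 0.395 FPKM and was not tested. WT buds were at 0.278, 0.214, 0.144, 0.135 and 0.0892 FPKM, which corresponds to about 1.06 to 4.19 fragments each. Null replicates 1 and 3 were at 0.864 and 1.37 FPKM (about 12.8 and 21.3 fragments) and null replicate 2 was at 0.0672 FPKM (about 1.06 fragments), below every WT bud. The groups therefore overlapped. When the filter on low values was dropped, the log2 fold change was 0.52 (SE 0.22, unadjusted p = 0.0449, adjusted p = 0.488, limma).

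Promoter sequence was read for the members from RefSeq (GRCm38.p6), 250 bases before to 50 bases after each start site. The table held 5 of the 6 members, and *Krt19* was not among them. The 4 motifs searched, on both strands, were the TEAD motif GGAATG, the AP-1 motif TGANTCA, the TATA box TATAAA and the Sp1 motif GGGCGG. The window of *Krt20* held 3 matches to the TEAD motif, of which the first pair begin 139 and 134 bases before the start site and share 1 base, and the third lies on the opposite strand 74 bases before it. Of all 32851 windows, 14.7% held at least 1 such match and 0.131% held 3 or more. The windows of *Krt8*, *Krt18*, *Krt7* and *Krt23* held none. They are shown for *Krt20* (chr11:99438104-99438403, minus strand) and for the *Krt8* (chr15:102004293-102004592, minus strand) and *Krt18* (chr15:102027966-102028265, plus strand) pair, with matches to the TEAD motif and the TATA box in capitals.
Krt20: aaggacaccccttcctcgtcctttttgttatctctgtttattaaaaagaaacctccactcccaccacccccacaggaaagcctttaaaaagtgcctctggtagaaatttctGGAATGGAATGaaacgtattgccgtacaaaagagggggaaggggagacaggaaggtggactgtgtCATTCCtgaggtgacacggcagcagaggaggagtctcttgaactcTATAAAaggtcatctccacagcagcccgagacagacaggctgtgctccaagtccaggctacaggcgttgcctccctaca
Krt8: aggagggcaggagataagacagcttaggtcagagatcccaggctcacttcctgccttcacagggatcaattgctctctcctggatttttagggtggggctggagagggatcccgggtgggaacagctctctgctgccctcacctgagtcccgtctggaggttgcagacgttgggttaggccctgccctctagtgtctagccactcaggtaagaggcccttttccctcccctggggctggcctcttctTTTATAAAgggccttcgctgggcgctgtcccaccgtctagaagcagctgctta
Krt18: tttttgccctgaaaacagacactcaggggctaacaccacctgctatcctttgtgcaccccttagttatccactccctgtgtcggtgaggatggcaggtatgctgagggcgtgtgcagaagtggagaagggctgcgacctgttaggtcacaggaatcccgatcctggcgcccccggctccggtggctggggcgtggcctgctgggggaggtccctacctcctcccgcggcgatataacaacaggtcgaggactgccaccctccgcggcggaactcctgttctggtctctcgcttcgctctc
A TATA box match stood 29 bases before the start of *Krt20*, and a pair of overlapping matches on opposite strands spanned the annotated start of *Krt8* (13.6% of all windows held a match). No member held an AP-1 match (7.81% of all windows), and *Krt7* alone held Sp1 matches, 4 of them (35.7% of all windows held at least 1). These are matches of letters and no binding was measured.

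Summed over the 6 members, keratin RNA was 134 ± 21.1 FPKM (SD, n = 5, range 109 to 164) in WT buds and 252, 273 and 599 FPKM in null buds. The makeup of the sum differed little in type and more within type I. The ratio of type II to type I was 1.01 ± 0.164 (range 0.828 to 1.21) in WT buds and 1.04 ± 0.0908 (range 0.930 to 1.09) in null buds, and *Krt8* to *Krt18* alone was 0.923 ± 0.178 and 1.03 ± 0.122. The difference in either ratio was smaller than the spread between buds. Within type I, *Krt19* made up 5.20 ± 1.33% (range 3.68 to 6.76%) in WT buds and 12.8 ± 3.15% (10.3 to 16.3%) in null buds, with no overlap. The share of *Krt18* was 91.9 ± 1.98% in WT and 82.1 ± 2.43% in null buds, and that of *Krt20* was 2.58 ± 1.07% and 4.66 ± 0.908%, with overlapping ranges for *Krt20*. Within type II, *Krt7* made up 16.6 ± 4.19% and 18.5 ± 1.73%, ranges that overlapped.

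**Figure D2:**
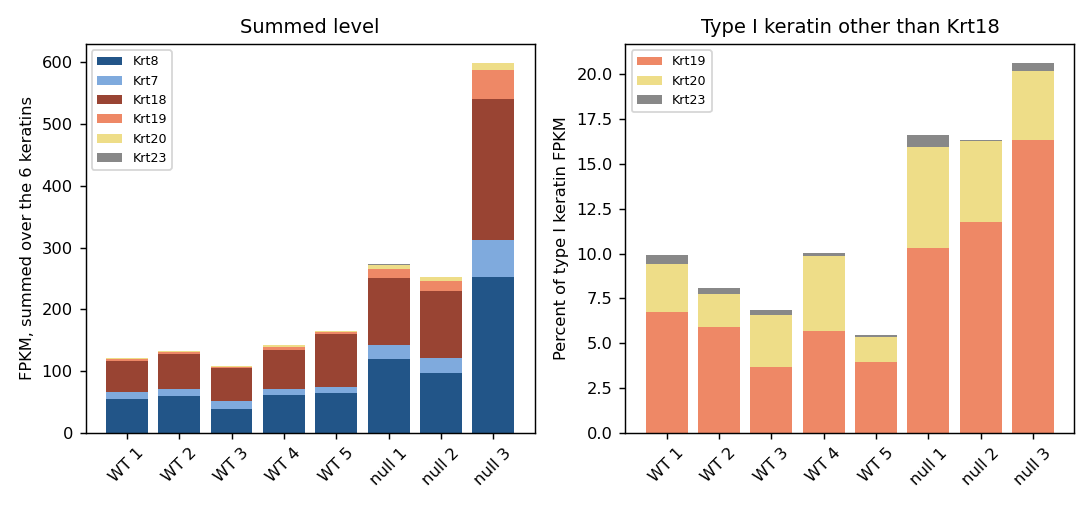
Left, FPKM of the 6 keratins stacked for each bud, with null replicate 3 at 599 FPKM against at most 164 FPKM in WT buds. Right, percent of type I keratin FPKM made up by *Krt19*, *Krt20* and *Krt23* in each bud, where the *Krt19* block grows from 3.68 to 6.76% in WT buds to 10.3 to 16.3% in null buds.

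A ratio to another gene in the same library does not depend on how libraries were scaled. For this reason 4 keratins were also divided by *Epcam*, a surface protein of epithelial cells, and by *Vim*, the main filament gene of mesenchyme. *Epcam* itself was 38.1 ± 6.11 FPKM in WT buds and 64.1, 56.0 and 137 FPKM in null buds (log2 fold change 1.04). The epithelial markers *Lsr* and *Cldn3*, picked after their values were seen, were at 0.31 and 1.70. Such ratios therefore depend on the gene taken as denominator, and whether *Epcam* tracks the amount of epithelium was not tested. Per *Epcam*, *Krt8* and *Krt18* overlapped between genotypes through WT replicate 5 alone, at 2.05 and 2.70. The other WT buds, at most 1.54 and 1.62, lay below every null bud. *Krt8* per *Epcam* was 1.17 to 2.05 in WT and 1.73 to 1.85 in null buds (log2 difference 0.31, exact permutation p = 0.143, adjusted p = 0.163 over the 8 ratios), and *Krt18* per *Epcam* was 1.21 to 2.70 and 1.67 to 1.95 (0.14, exact permutation p = 0.607, adjusted p = 0.607). With 1 bud omitted at a time, these differences ran from 0.23 to 0.43 and from 0.04 to 0.33. The largest of each came without WT replicate 5 (adjusted p = 0.0653 and 0.114, exact permutation test).

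*Krt19* per *Epcam* was higher in every null bud, at 0.209, 0.274 and 0.345 against 0.0641 to 0.113 in WT buds (log2 difference 1.61, exact permutation p = 0.0179, adjusted p = 0.0286). *Krt7* per *Epcam* was 0.370, 0.435 and 0.428 in null buds and 0.231 to 0.367 in WT buds, so that the groups only just parted (0.53, exact permutation p = 0.0357, adjusted p = 0.0476). With *Cdh1*, which encodes E-cadherin, in place of *Epcam*, the difference for *Krt7* was 0.48 and missed the threshold (exact permutation test, adjusted p = 0.0714). Per *Vim*, all 4 keratins were higher in every null bud, by 1.11 for *Krt8*, 0.93 for *Krt18*, 2.41 for *Krt19* and 1.32 for *Krt7* on the log2 scale (exact permutation p = 0.0179 and adjusted p = 0.0286 for each). The paper reports vimentin protein in the mutant epithelium at a slightly later stage, and none in WT epithelium. Ratios to *Vim* are therefore not ratios to mesenchyme alone. With fewer buds the smallest possible p rises, and without any 1 of the null buds or without WT replicate 2 or 4 none of the called ratios kept an adjusted p under 0.05. *Krt7* per *Epcam* lost it also without WT replicate 1 or 5 and *Krt18* per *Vim* without WT replicate 3, although the log2 difference stayed between 1.44 and 1.80 for *Krt19* per *Epcam* and between 0.45 and 0.62 for *Krt7* per *Epcam*.

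**Figure D3:**
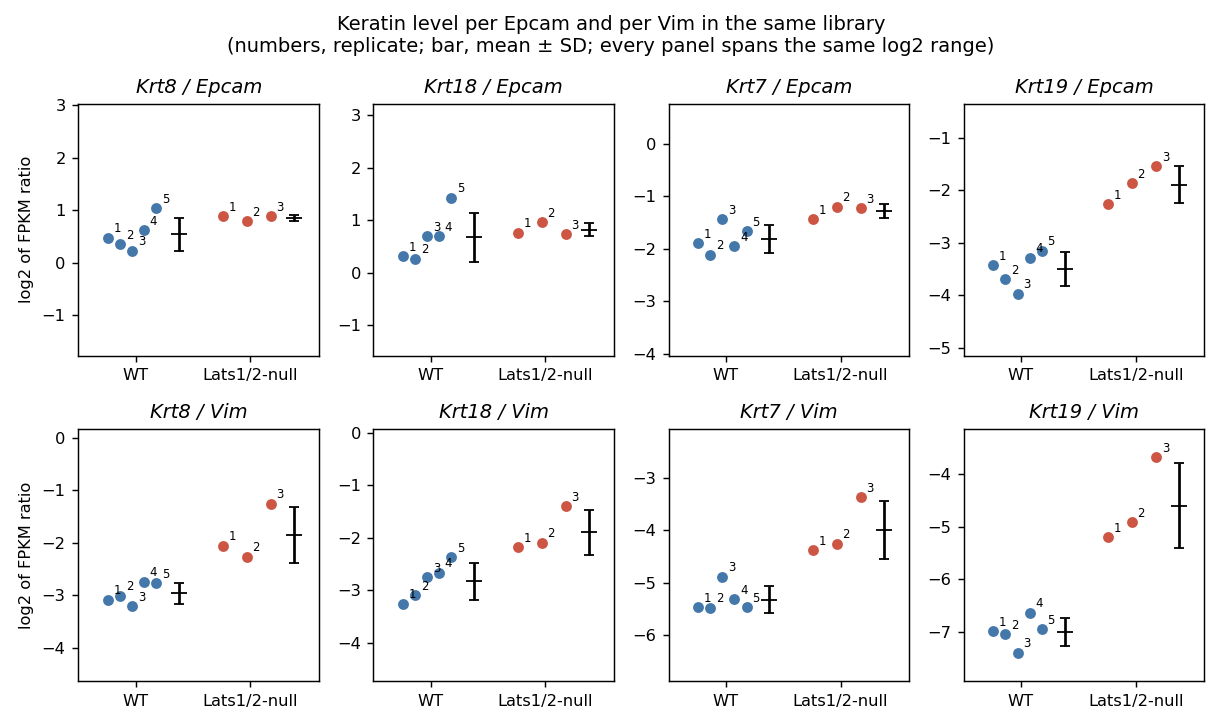
Log2 of the FPKM ratio of each keratin to *Epcam* (top) and to *Vim* (bottom) in each bud, with points numbered by replicate and bars at the mean ± SD, each panel spanning the same log2 range. *Krt8* and *Krt18* per *Epcam* overlap between genotypes through WT replicate 5 alone. *Krt19* per *Epcam* is higher by 1.61, and all 4 ratios to *Vim* are higher in the null buds.

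Markers of the epithelium and of other cells were compared in the same fit. All 14 progenitor markers of the labelled tissue passed the filter, with *Sox9* at 29.0 FPKM on average in WT buds. Of 10 listed liver markers 8 passed it too, so passing does not set the tissue apart. In bulk samples such as these, fewer cells of a type and less RNA per cell cannot be told apart. Of 19 tested epithelial markers, 19 were higher in null buds and 18 had an unadjusted p under 0.05 (median log2 fold change 1.06), and their summed FPKM was 179 to 229 in WT and 301 to 715 in null buds. *Cldn3*, *Cldn4* and *Cldn6*, which encode tight junction claudins, had the smallest p, at log2 fold changes of 1.70, 1.35 and 1.46. Of 14 pancreatic progenitor markers, 13 were higher, 8 of them with an unadjusted p under 0.05, and those with the smallest p were *Sox9* (log2 fold change 1.25), *Nkx6-1* (1.47) and *Hhex* (1.17), transcription factors of the early bud. Null replicate 3 held the highest sum of both lists. The median of the epithelial markers was 0.67 without that bud. The median of the progenitor markers was 0.70 with and 0.37 without it, and 6 in place of 8 then had an unadjusted p under 0.05.

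Among 7 tested duct markers 5 were higher, 4 of them with an unadjusted p under 0.05, and 2 were lower. The sums were 49.9 to 92.9 FPKM (mean 69.1) in WT and 100.4 to 215 FPKM (mean 149) in null buds. Most of that difference came from 1 gene, *Spp1*. *Spp1*, which encodes the secreted protein osteopontin, was 4.56 ± 2.43 FPKM in WT buds and 77.0 ± 54.4 FPKM in null buds (log2 fold change 3.66), and *Glis3* (1.29) and *Muc1* (0.66) had the next smallest p. Mesothelium, the cover of the bud, also bears simple keratins. Of 7 tested mesothelium markers 6 were lower in null buds, 3 with an unadjusted p under 0.05, and the summed level was 39.1 to 56.2 FPKM in WT and 17.7 to 28.2 FPKM in null buds, without overlap. *Aldh1a2*, which encodes a retinoic acid synthesis enzyme, was 19.3 ± 5.98 FPKM in WT buds and 5.25 ± 0.662 FPKM in null buds (log2 fold change -1.66, adjusted p = 0.0631, limma). The mean mesothelium sum was 48.3 FPKM in WT and 24.5 FPKM in null buds, and *Aldh1a2* alone made up most of that difference.

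Mesenchyme markers were lower for 12 of 13 genes, 3 with an unadjusted p under 0.05 (*Pdgfra*, *Foxf1* and *Col3a1*, at log2 fold changes of -0.90, -0.95 and -0.62). The 1 higher gene, *Prrx1*, named after its values were seen, was at 0.61 and also had an unadjusted p under 0.05 (limma). The list had sums of 654 to 907 FPKM in WT and 303 to 718 FPKM in null buds. Null replicate 3, the highest for keratins, was the lowest for mesenchyme, and the median of that list was -0.47 with and -0.16 without it. Without that bud 10 of 13 were lower, 1 with an unadjusted p under 0.05, and without null replicate 2 that count was 8. Endothelium markers were lower for 10 of 10 (3 with an unadjusted p under 0.05, sums of 131 to 222 and 92.8 to 146 FPKM), and 5 reached that p without null replicate 1 or without WT replicate 3. Other lists overlapped between genotypes in their sums, with red blood cell markers higher for 8 of 8, leukocyte markers for 3 of 6, nerve and neural crest markers for 6 of 9, stomach and duodenum markers for 3 of 3 and liver markers for 8 of 8 tested genes. Stomach and duodenum sums were 189 to 339 and 218 to 542 FPKM, and liver sums were 183 to 263 and 225 to 587 FPKM. Only 1 of the 10 listed stomach and duodenum markers averaged at least 2 FPKM, so their sums were mostly that of 1 gene. An unadjusted p under 0.05, which 11.3% of all tested genes had, was reached by 3 liver markers (*Afp*, *Rbp4* and *Ttr*), 1 nerve marker (*Sox10*) and none of the other 3 lists. Without null replicate 3 the counts were 1 for liver and 0 for nerve, and the liver count was also 1 without WT replicate 1 or WT replicate 3. In every marker list limma called 0 genes at an adjusted p under 0.05. *Msln*, a defining marker of mesothelium, was listed at 0 in all WT buds and averaged 0.180 FPKM in null buds, and 2 stomach and duodenum markers were listed at 0 in all 8. The part of the cell mixture in the keratin values was not tested beyond the ratios to *Epcam* and *Vim*. Unlike 12 of the 13 mesenchyme markers, *Vim* was not lower in null buds (log2 fold change 0.27, adjusted p = 0.468, limma). Its ratios therefore do not measure the share of mesenchyme.

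**Figure D4:**
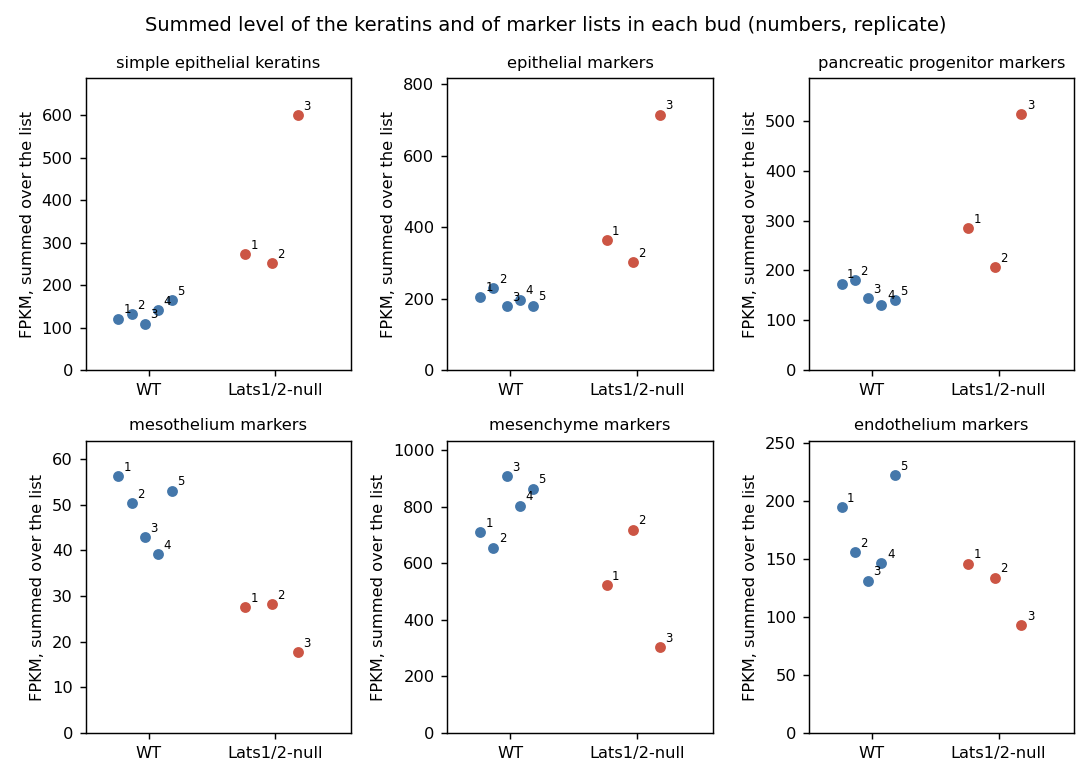
FPKM summed over each list (linear axis from 0) in every bud, numbered by replicate. Null replicate 3 is highest for keratins, epithelial and progenitor markers and lowest for mesothelium, mesenchyme and endothelium markers, and the mesothelium sums of 17.7 to 28.2 FPKM in null buds lie below all WT buds.

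The rest of the keratin family was almost silent. The table holds 52 keratin genes, 25 on chromosome 15 and 27 on chromosome 11, and the 6 members made up 95.8 to 97.5% of their summed FPKM in WT buds and 98.1 to 99.2% in null buds. Of the 46 others, 21 were listed at 0 in all 8 libraries and 24 had a mean under 0.5 FPKM. The exception was *Krt10*, a type I keratin of the upper epidermis, at 3.12 ± 0.735 FPKM in WT and 2.52 ± 0.520 FPKM in null buds, with overlapping ranges (log2 fold change -0.22, SE 0.18, adjusted p = 0.709, limma). Apart from *Krt10* no other keratin passed 0.670 FPKM in any bud, a value of *Krt4* in null replicate 3 that was picked after the values were seen. *Krt4*, 71975 bases from *Krt8*, was at most 0.299 FPKM in WT buds and 0.353, 0.423 and 0.670 FPKM in null buds. It thus did not overlap between genotypes either, but it was under the filter and not tested. Basal keratins of layered epithelium stayed low, with *Krt14* at most 0.393 and *Krt5* at most 0.233 FPKM, both chosen likewise.

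Genes beside the members were looked at by position. *Krt10*, 39038 bases from *Krt20*, was not higher, and *Krt12*, 6143 bases from *Krt20*, was at 0 in 7 buds and 0.0565 FPKM in the eighth. *Krt15*, 4861 bases from *Krt19*, did not pass 0.318 FPKM in any bud. On chromosome 15, *Eif4b*, a translation initiation factor gene 41746 bases from *Krt18*, was 151 ± 30.5 FPKM in WT and 140 ± 4.73 FPKM in null buds (log2 fold change -0.09, adjusted p = 0.853, limma). *Tns2* and *Spryd3*, the next genes, had log2 fold changes of -0.10 and 0.38 (adjusted p = 0.872 and 0.393, limma). The unadjusted p was 0.559 for *Tns2* and 0.0311 for *Spryd3* (limma).

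Partners that tie keratins to desmosomes and hemidesmosomes were mostly higher as well. Of 17 such genes 15 were tested, 15 were higher in null buds, 10 had an unadjusted p under 0.05 and 0 an adjusted p under 0.05 in limma, with a median log2 fold change of 0.59. *Eppk1*, which encodes the plakin epiplakin, was 0.585 ± 0.233 FPKM in WT and 3.08, 1.08 and 6.16 FPKM in null buds (log2 fold change 1.33). *Ppl*, which encodes periplakin, was 3.00 ± 0.945 FPKM in WT and 7.85, 4.63 and 18.1 FPKM in null buds (1.33). *Fam83h*, a keratin-binding gene, was 2.203 ± 0.339 FPKM and 4.10 ± 1.38 FPKM (0.65). The null buds lay above all WT buds for 4 of the 15. Without null replicate 3, 13 of 15 were higher, 3 had an unadjusted p under 0.05 and the median was 0.37. The 5 partners with an unadjusted p above 0.05, named after their values were seen, were *Itga6*, *Jup*, *Dst*, *Tchp* and *Plec*, at log2 fold changes of 0.01 to 0.13.

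Filament genes of other classes were split. Of 15 tested, 8 were higher and 7 lower (median log2 fold change 0.03), with 1 in each direction at an unadjusted p under 0.05 and 0 at an adjusted p under 0.05 in limma. *Lmna*, which encodes nuclear lamins A and C, was 8.82 ± 1.37 FPKM in WT and 12.5, 14.2 and 23.6 FPKM in null buds, all above the WT buds (log2 fold change 0.81, SE 0.20, adjusted p = 0.197, limma). *Des*, the muscle filament gene, was 31.8 ± 4.78 FPKM in WT and 26.9, 27.1 and 12.9 FPKM in null buds (-0.55, SE 0.23, adjusted p = 0.414, limma). *Vim* was 432 ± 49.7 FPKM in WT and 493, 464 and 602 FPKM in null buds (0.27, SE 0.12, adjusted p = 0.468, limma), with overlapping ranges.

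**Figure D5:**
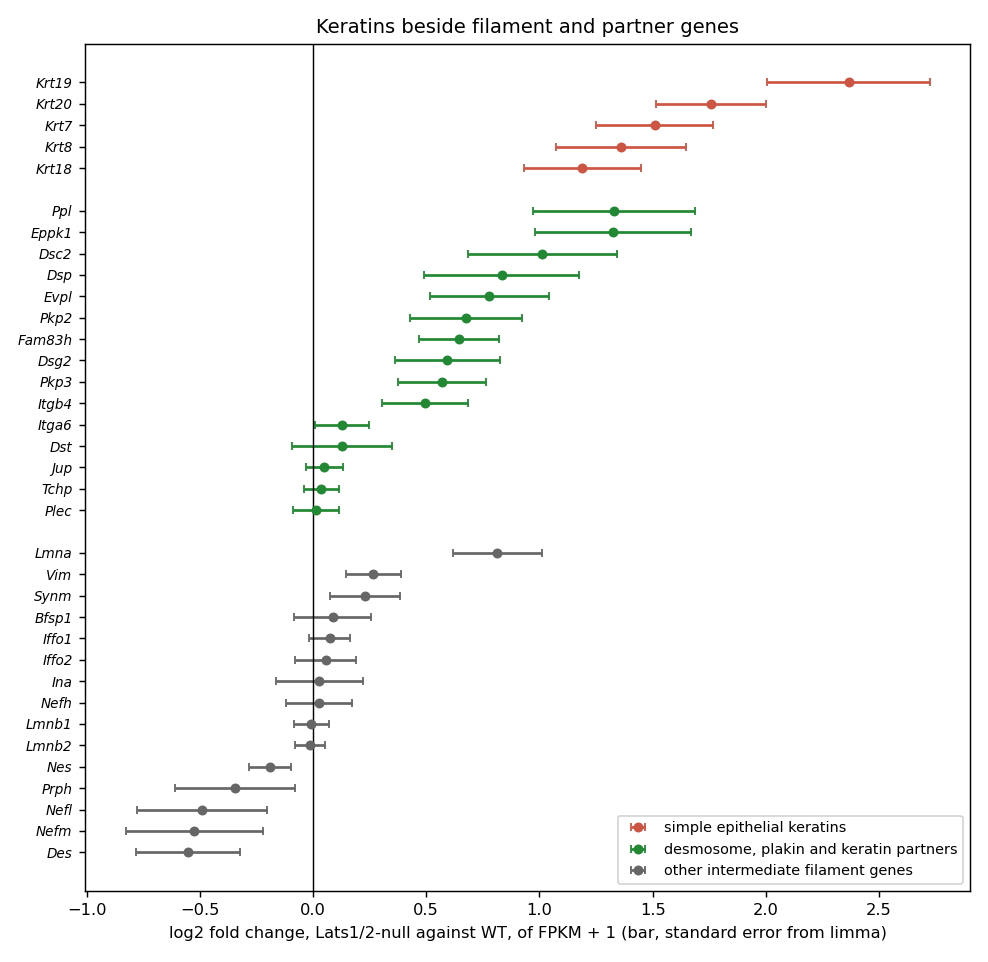
Log2 fold change of FPKM + 1, Lats1/2-null against WT, for the 5 tested keratins, 15 keratin partner genes and 15 other filament genes, with bars of 1 standard error from limma. The keratins lie between 1.19 and 2.36, the partners have a median of 0.59 and the other filament genes a median of 0.03.

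The tested keratins varied together from bud to bud. Pearson's r of log2(FPKM + 1) over the 8 libraries ran from 0.877 (*Krt18* and *Krt20*) to 0.978 (*Krt8* and *Krt19*), values that include the difference between genotypes. After the genotype means were subtracted, *Krt8* and *Krt19* still stood at 0.945, and *Krt20* had the lowest values, 0.481 to 0.575. These are descriptions over 8 points that share libraries, and null replicate 3 holds the highest value of each gene.

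Outside the family, the genes whose pattern was most like the mean of the 5 keratins over the 8 libraries included *Pvrl2*, *Eps8l2*, *Tuft1*, *Ankrd1*, *BC021891*, *Cldn3*, *Aldh1a7*, *Mal2* and *Rhob*, with Pearson's r of 0.987 to 0.995. After the genotype means were subtracted they included *Abca3*, *Capn5*, *Igfbp7*, *Tuft1*, *Nt5c*, *Pvrl2*, *Rasef* and *Pdss1* (0.967 to 0.989), and *Pvrl2* and *Tuft1* stood in both. *Pvrl2*, which encodes the junction protein nectin-2, was 28.2 to 31.5 FPKM in WT buds and 42.4, 40.3 and 54.6 FPKM in null buds. *Eps8l2*, an actin-regulating protein gene, was 2.50 to 3.92 FPKM in WT buds and 22.8, 14.8 and 53.9 FPKM in null buds. Both of these genes had null replicate 3 at the top and no overlap between genotypes, which follows from their choice by likeness to the keratins.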

How the data were processed

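Total RNA of 8 single E11.0 buds was measured, with groups and replicate numbers taken from the labels. The authors aligned reads to GRCm38 with TopHat 2.1.0 (stranded setting) and deposited FPKM per gene, made with Cufflinks 2.2.1. Their methods state quantile normalization, but the deposited FPKM columns do not share a distribution and were used as they stand. No read counts were used, so the fragments behind each value are estimated only from the steps of low values. For depth the paper gives an approximate number of reads per sample.

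Genes that averaged 0.5 FPKM or more were compared by limma 3.58.1 (R 4.3.3) on log2(FPKM + 1), its eBayes step allowing for a mean-variance trend, two-sided, with Benjamini-Hochberg adjustment over all tested genes and a threshold of 0.05. The study compared the groups with Cuffdiff, which needs aligned reads. Exact permutation tests used all 56 splits of the buds, and the 8 keratin ratios were adjusted as 1 family. The fit was tested on simulated data.

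Table starts count from 0 and 1 was added: of 11759 genes whose end is the same in RefSeq, 8554 then had the same start. Transcripts were compared with BLAST 2.17.0. Members and lists were chosen with earlier results of these data known. Named genes are the members, *Lats1*, *Lats2*, *Epcam*, *Vim*, other keratins of at least 0.5 FPKM on average, up to 3 genes of each list with the smallest p, and the genes most like the keratins, of which some are not reported here, with exceptions said where they occur. The labels do not say whether buds came from separate litters, and p-values measure the spread between these buds.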

Additional observations from a re-analysis of the deposited data

Results flagged for a closer look

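Of 16 sets of 5 WT values examined, 2 held a bud far from the others, and chance flags about 1 in 20. *Krt19* in WT replicate 3, at 2.13 FPKM, lay apart below the other WT buds. The log2 ratio of *Krt7* to *Vim* in the same bud, at -4.89, lay apart above the others. Sets of 3 null buds were not examined in this way, and neither value reached the range of the null buds.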

How the results depend on the processing

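The log2 fold changes of the 5 tested keratins and the counts of members called were computed again under 8 other settings, namely quantile or median-ratio scaling, a pseudocount of 0.1, no filter or one at 2 FPKM, array weights, a variance without trend, and a replicate block, and again with each bud omitted. *Krt23* stays under the filter, so it was recomputed only without a filter, with the other pseudocount and with buds omitted. The ratios were recomputed with other genes and with buds omitted. All 5 tested keratins kept a higher level in null buds and an unadjusted p under 0.05 in limma in each of the 8 settings and with each bud omitted. With array weights, which gave null replicate 1 the largest weight, all 5 passed the adjusted threshold, *Krt7* at 1.18, *Krt8* at 1.18, *Krt18* at 1.04, *Krt19* at 1.91 and *Krt20* at 1.71 (adjusted p = 0.0241, 0.0338, 0.0351, 0.0180 and 0.00642, limma), as did 174 of 13777 genes in place of 2. With a pseudocount of 0.1, 2 members passed, *Krt19* at 2.64 and *Krt20* at 2.23 (adjusted p = 0.0471 each, limma), 18 genes passed in all, and *Krt23*, untested, moved from 0.52 to 1.23. The cause was not tested.

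As buds were left out, the number of members called ran from 0 to 2 and the number of genes called from 0 to 69. Log2 fold changes ran from 1.09 to 1.73 for *Krt7*, 0.95 to 1.64 for *Krt8*, 0.83 to 1.37 for *Krt18*, 1.82 to 2.68 for *Krt19*, 1.53 to 1.94 for *Krt20* and 0.27 to 0.84 for *Krt23*. Ratios to *Epcam* ran from 1.44 to 1.80 for *Krt19* and 0.45 to 0.62 for *Krt7*, and those to *Vim* from 0.80 to 1.31 for *Krt8*, 0.69 to 1.08 for *Krt18*, 1.95 to 2.71 for *Krt19* and 1.01 to 1.51 for *Krt7*. With 7 buds the smallest permutation p is larger, which bears on every call lost there. With *Cdh1* for *Epcam*, *Krt7* moved to 0.48 (adjusted p = 0.0714, exact permutation test), and *Krt19* at 1.57 kept its call. With the mean of *Col1a1*, *Col1a2* and *Col3a1* for *Vim*, the differences grew to 1.91 for *Krt8*, 1.74 for *Krt18*, 3.21 for *Krt19* and 2.13 for *Krt7* (adjusted p = 0.0286 each, exact permutation test).

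Same-numbered buds did not deviate together (r of 0.09, -0.10 and 0.07), so the numbers were not used as a pairing. So few pairs cannot exclude a shared litter. With the replicate block, log2 fold changes were 1.45 for *Krt7*, 1.48 for *Krt8*, 1.37 for *Krt18*, 2.46 for *Krt19* and 1.88 for *Krt20* (adjusted p = 0.361 to 0.479, limma), and 1 gene was called. Only 3 null buds, of which 1 is far above the others, and few fragments behind *Krt20* and *Krt23* limit these values.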
